A study of Mus musculus with 4 samples.

Results

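Open chromatin away from gene starts often lies in groups of neighbouring elements, and the regions described here form the groups with most members in these T cells. Merging the peaks of 4 ATAC-seq libraries gave 93675 regions, and every library had called 47767 of them. Of these constitutive regions, 27677 had a centre more than 2.5 kb from every annotated transcript start and are called distal here. Distal neighbours separated by at most 12500 bases were stitched into units, and a unit of 8 or more regions was taken as a cluster. The rule gave 1296 member regions in 131 clusters, which were 4.68% of the constitutive distal regions and 2.71% of all regions called in every library. The members were thus chosen by their peak calls, so their number, spacing and presence in all libraries describe the choice and were not tested.

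ATAC-seq measures open chromatin by the sites at which a transposase can insert adapters into DNA. Distal open sites include enhancers, which bind transcription factors and act on genes over a distance, and insulator elements. Groups of closely spaced enhancers are known as stretch enhancers or super-enhancers and are often found at genes that set a cell's identity, in T cells for example at transcription factor, receptor and cytokine genes. An open site alone does not show enhancer activity, and the gene named for a cluster is the protein-coding gene that overlaps its span or, failing that, the nearest one.

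The libraries came from naive CD4+ T cells of the spleen of male wild-type C57BL/6 mice aged 7 weeks, sorted as CD62L high, CD44 low and CD25-. All cultures received coated anti-CD3 at 5 µg/ml, soluble anti-CD28 at 1 µg/ml, human TGF-β1 at 5 ng/ml and mouse IL-2 at 10 ng/ml for 48 h, which are conditions that induce regulatory T cells. The 2 iTreg+IL-4 libraries also had mouse IL-4 at 15 ng/ml, and the 2 iTreg+PBS libraries had none. The study describes each as a pooled biological sample, and no sort after culture is described, so a library averages over whatever cells the culture held. Fewer cells with a site open and less opening per cell cannot be told apart in such data.

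In iTreg+PBS, 77064 peaks were listed for replicate 1 and 56645 for replicate 2. In iTreg+IL-4 the numbers were 78670 and 67743. The number of reads behind them is unknown, and heights are not scaled between libraries, so each region's highest peak was ranked within its library. The shortest list, that of iTreg+PBS replicate 2, limited the members most, and without it the rule gave 2286 members in 219 clusters. The rank is given as a percentile, which runs from 0 for the lowest to 100 for the highest of the 47767 regions called in all 4 libraries. A gene was counted as having an open promoter if a region called in all 4 libraries lay within 1 kb of a start, which held for 60.1% of 21911 protein-coding genes. All 11 T cell markers had one, Cd3e, Cd4 and Lck among them. So did 3 of 7 B cell markers (Pax5, Ebf1 and Blk), 3 of 7 myeloid markers (Spi1, Cebpa and Cd14) and 7 of 19 non-blood markers, while the myeloid gene Csf1r did not.

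The sequences shown are the central 300 bases of the member with the highest mean percentile in each of the 5 clusters with most members, given on the plus strand of GRCm38 (mm10). They show what the tallest elements of the largest clusters consist of. Letters in capitals match 1 of the 12 motifs searched below.
Ccr7 cluster, chr11:99171044-99171343, intergenic: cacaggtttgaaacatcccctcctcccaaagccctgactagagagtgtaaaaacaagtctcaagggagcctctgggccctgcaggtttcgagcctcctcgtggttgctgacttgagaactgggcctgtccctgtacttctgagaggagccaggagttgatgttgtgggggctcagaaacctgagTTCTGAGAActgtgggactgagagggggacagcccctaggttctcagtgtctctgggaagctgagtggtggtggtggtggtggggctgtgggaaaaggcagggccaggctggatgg
Bach2 cluster, chr4:32424361-32424660, intronic: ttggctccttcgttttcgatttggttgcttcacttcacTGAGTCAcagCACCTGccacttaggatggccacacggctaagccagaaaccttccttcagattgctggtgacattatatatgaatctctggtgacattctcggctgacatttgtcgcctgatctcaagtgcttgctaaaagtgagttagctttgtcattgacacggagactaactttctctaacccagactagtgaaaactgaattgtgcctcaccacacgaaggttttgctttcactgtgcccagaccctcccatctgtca
Ubac2 and Timm8a2 cluster, chr14:122009469-122009768, intronic: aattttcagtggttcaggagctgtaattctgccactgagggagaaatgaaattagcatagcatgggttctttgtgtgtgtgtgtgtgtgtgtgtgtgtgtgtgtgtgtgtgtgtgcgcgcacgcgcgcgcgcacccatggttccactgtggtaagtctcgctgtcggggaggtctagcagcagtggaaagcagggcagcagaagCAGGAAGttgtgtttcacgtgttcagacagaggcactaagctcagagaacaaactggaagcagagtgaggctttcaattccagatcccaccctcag
Ikzf1 cluster, chr11:11725931-11726230, intronic: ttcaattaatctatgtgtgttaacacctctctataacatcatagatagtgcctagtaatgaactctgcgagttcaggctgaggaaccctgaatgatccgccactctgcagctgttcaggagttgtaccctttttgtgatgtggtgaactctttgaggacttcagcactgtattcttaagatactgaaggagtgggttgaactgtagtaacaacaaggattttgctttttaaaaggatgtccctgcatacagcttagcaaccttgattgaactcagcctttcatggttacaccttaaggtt
Il10 and Mapkapk2 cluster, chr1:130993824-130994123, intergenic: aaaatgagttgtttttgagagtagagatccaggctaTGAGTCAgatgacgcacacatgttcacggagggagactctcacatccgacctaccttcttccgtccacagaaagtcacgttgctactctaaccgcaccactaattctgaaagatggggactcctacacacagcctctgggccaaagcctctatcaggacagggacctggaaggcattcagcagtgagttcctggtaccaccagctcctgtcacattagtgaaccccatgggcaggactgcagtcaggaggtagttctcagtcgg

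The Bach2 and Il10 elements each held the AP-1 motif TGANTCA, and the Bach2 element held the E-box CAGGTG beside it on the other strand. The Ubac2 element held the ETS motif CAGGAAG and a long stretch of alternating bases, and the Ccr7 element held the STAT motif TTCNNNGAA. The Ikzf1 element held no match, which says only that these letters were not in this window.

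**Figure D1:**
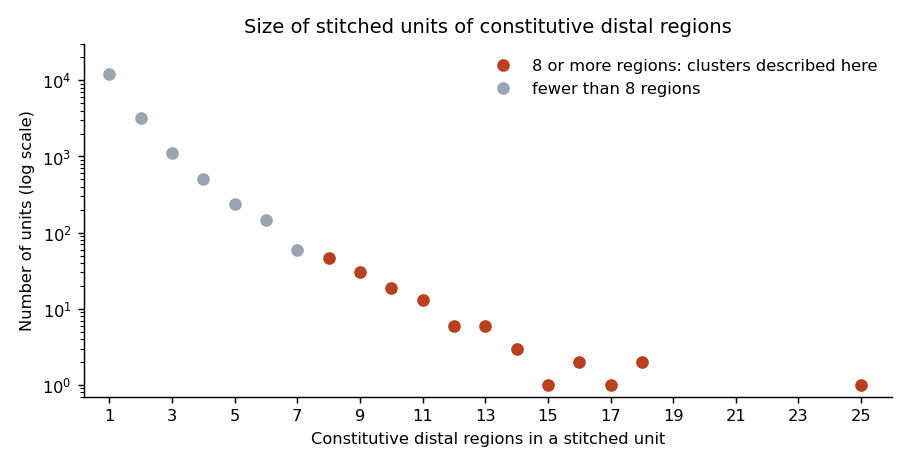
Number of stitched units (log axis) against the number of constitutive distal regions in a unit. Of 17520 units, 12116 were single regions, and the 131 units of 8 or more, drawn in red, reached 25 regions at Ccr7.

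Stitched units became rarer with size, and no gap in the sizes separated the clusters from the rest. Just inside the limit were 47 clusters of 8 regions with a median span of 43.8 kb, and just outside it were 60 units of 7 regions with a median span of 33.9 kb. Regions of the units of 7 had median percentiles of 56.9 and 53.2 in the iTreg+PBS libraries and 56.1 and 55.3 in the iTreg+IL-4 libraries. Those in clusters of 8 had 58.6 and 57.3, and 58.1 and 58.6.

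The clusters spanned 6.85 Mb in all, with a median of 49.4 kb and a range of 20.3 to 118.8 kb. Members filled 13.2% of these spans. A protein-coding gene overlapped 97 of the clusters, and the other 34 lay between such genes. Chromosome 11 had the most clusters, 12 of them, among 1978 constitutive distal regions, and the X chromosome had none among its 544. Over all chromosomes, 27677 such regions gave the 131 clusters. In 10 cases a cluster ended less than 200 kb from the next, as between Ctla4 and Icos, whose clusters were 61.0 kb apart, between the clusters at Lef1 at 19.1 kb, and between Rara and Ccr7 at 116.1 kb.

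Members lay within introns in 59.0% of cases, within exons in 2.2% and between genes in 38.8%, counting genes of every type. The other 26381 constitutive distal regions were intronic in 51.3%, exonic in 4.77% and intergenic in 43.9%. The median distance to the nearest start was 16.2 kb for members and 11.4 kb for the others. Median widths were 622.5 and 606 bases.

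Members stood higher in the ranks than other distal regions. Their median percentile was 59.2 and 56.5 in iTreg+PBS replicates 1 and 2 and 58.2 and 58.0 in iTreg+IL-4 replicates 1 and 2, against 37.8 to 38.1 for the other constitutive distal regions in the 4 libraries. Constitutive regions nearer to start sites had medians of 69.2 to 71.5. In pileup height, the members' medians were 128 and 46 without IL-4 and 120 and 85 with it, and those of the other distal regions were 70, 29, 68 and 50 in the same order. Height decides whether a peak is called, so these levels are a description of regions chosen through calls.

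The levels varied widely among the members of a cluster. The SD of members' mean percentiles within a cluster had a median of 20.01 points, whereas the clusters' means had an SD of 10.7 points. A mean percentile of 90 or more was reached by 73 members (5.63%), compared with 9.75% of all regions called in every library and 1.93% of the other distal regions. Percentiles above 80 in all 4 libraries were found for 157 members in 83 clusters, and 40 members in 34 clusters were below 20 in all 4. These were 12.1% and 3.09% of members, against 4.80% and 14.1% of the other distal regions. A mean over 8 or more members varies less than its members do, so the SDs are given side by side only.

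The cluster with most members surrounded Ccr7, which encodes the chemokine receptor that brings T cells into lymph nodes. Its 25 regions spread over chr11:99091712-99208217, with 10 upstream of the gene, 2 in its body and 13 downstream. Mean percentiles over these regions were 65.8 and 65.7 in the iTreg+PBS libraries and 64.3 and 67.0 in the iTreg+IL-4 libraries, so the groups overlapped. The tallest element, whose sequence is given above, lay 16.1 kb from the nearest start and stood at percentiles of 96.7, 94.8, 96.7 and 96.6 in the order of the libraries above. The lowest element stood at the far downstream end, with percentiles of 2.91, 5.92, 1.13 and 17.1.

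**Figure D2:**
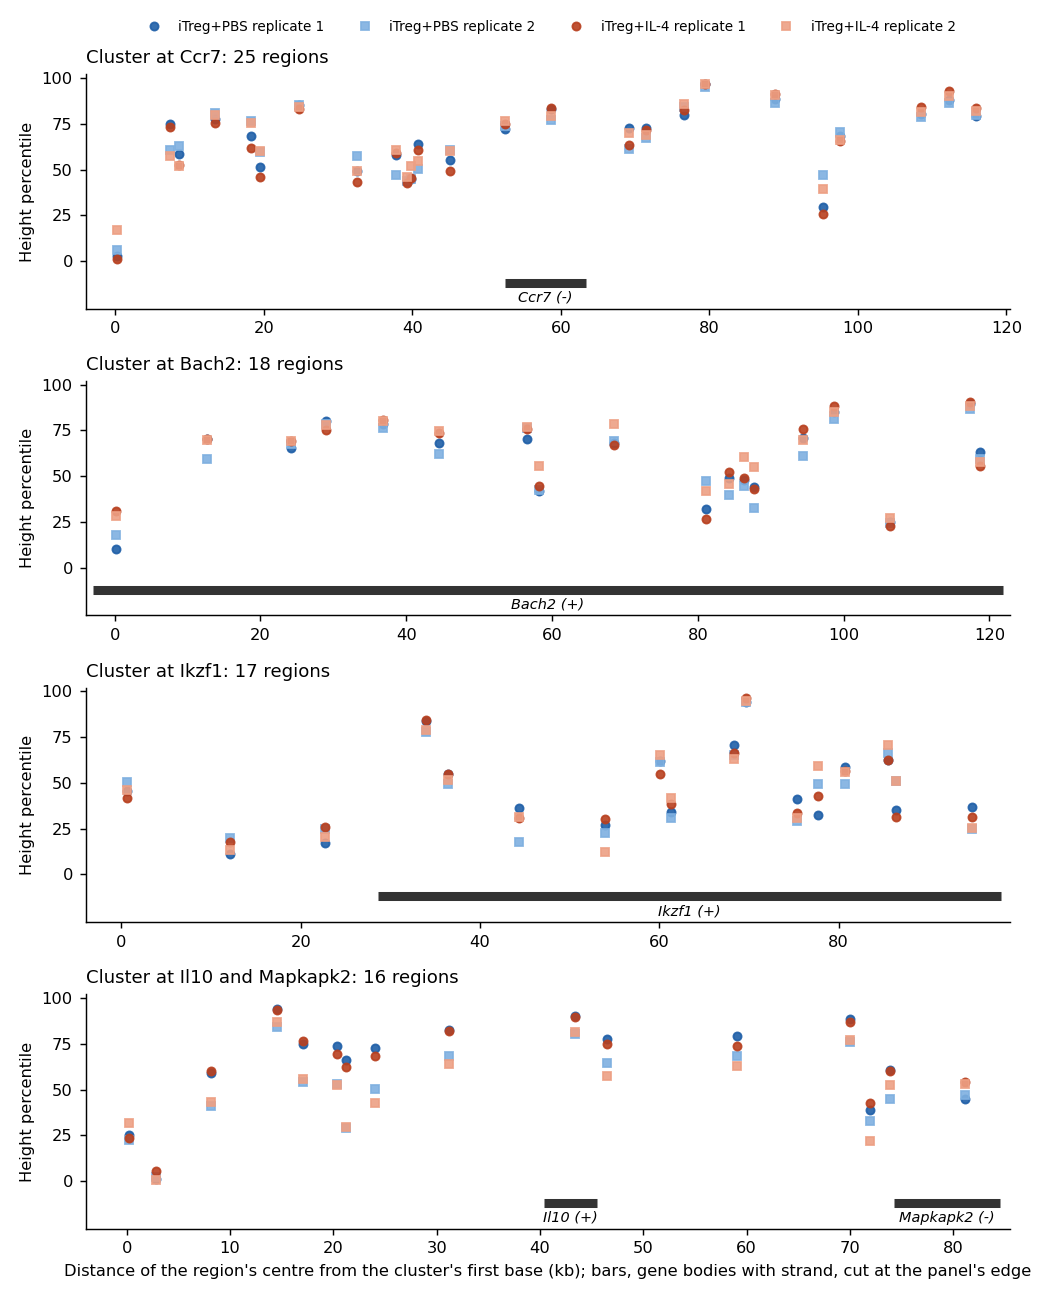
Height percentile of each member (points by library) against its distance in kb from the first base of its cluster, for the clusters at Ccr7, Bach2, Ikzf1 and Il10 with Mapkapk2; bars mark gene bodies. Tall and low elements lay side by side in each cluster, and at Il10 the replicate 2 libraries of both conditions lay lower in most regions.

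All 18 regions of the Bach2 cluster (chr4:32307162-32426004) lay inside the gene, which is 347.3 kb long. Bach2 encodes a transcriptional repressor that holds back effector differentiation and favours regulatory T cells. Mean percentiles were 58.9 and 57.05 without IL-4 and 60.6 and 63.5 with it, and 15 of the 18 regions had a higher mean with IL-4, as did 55.7% of all members and 48.8% of all regions called in every library. The groups did not overlap, which was so in this direction for 15.8% of all stitched units of 2 or more regions. The difference was 4.08 percentile points, and 2.66 without iTreg+IL-4 replicate 2.

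At Ikzf1 (chr11:11656408-11751524), the gene of the lymphoid factor Ikaros, 14 regions lay in the gene and 3 upstream of it. Mean percentiles were 47.3 and 46.1 in iTreg+PBS and 47.0 and 47.8 in iTreg+IL-4, so the conditions overlapped. The tallest element, 29.6 kb from the nearest start, stood between 94.0 and 96.1 in the 4 libraries. The lowest stood between 11.2 and 20.1.

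The 18 regions of the third cluster (chr14:121987415-122079833) began inside Ubac2, a gene of the endoplasmic reticulum, and ran past Timm8a2. Mean percentiles were 51.8 and 54.1 without IL-4 and 55.5 and 58.0 with it. The groups did not overlap, as in 15.8% of stitched units, and 13 of the 18 regions had a higher mean with IL-4, against 48.8% of all regions. The difference of 3.75 points was 2.51 without iTreg+IL-4 replicate 2.

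At Il10, the gene of the anti-inflammatory cytokine IL-10, 16 regions lay on chr1:130979443-131060959, 9 of them upstream of the gene, 1 inside it and 6 downstream towards and into Mapkapk2, which encodes a stress kinase. Il10 had no region called in all 4 libraries within 1 kb of a start, and it was the only one of the 9 linked genes without an open promoter to have a cluster of more than 11 regions. Mean percentiles were 64.3 and 51.2 in iTreg+PBS and 64.0 and 50.8 in iTreg+IL-4. The libraries therefore went together by replicate number and not by condition, with replicate 1 higher in both. The same order was seen at Glb1 with 57.4 and 46.3 against 62.0 and 51.8, and in the cluster nearest Id2 with 42.5 and 28.4 against 44.4 and 37.8.

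Among the next clusters by size were those at Lef1 (15 regions), a transcription factor of naive T cells, at Tnfrsf1b and Tnfrsf8 (14), which encode receptors of the TNF family, and at Foxp1 (13), which keeps T cells quiescent. Arhgef3 (14), St6gal1 (13), Ppp1r16b (13) and Myh9 (13) followed, of which St6gal1 encodes a sialyltransferase and Myh9 a myosin heavy chain. A cluster of 13 regions lay 111.5 kb from its nearest protein-coding gene, Id2, which encodes an inhibitor of E proteins. Over the 15 largest clusters, mean percentiles ran from 28.4 near Id2 to 86.1 at Gm47283 on the Y chromosome, both in iTreg+PBS replicate 2. In iTreg+PBS replicate 1 the cluster at Gm47283 stood at 71.8.

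**Figure D3:**
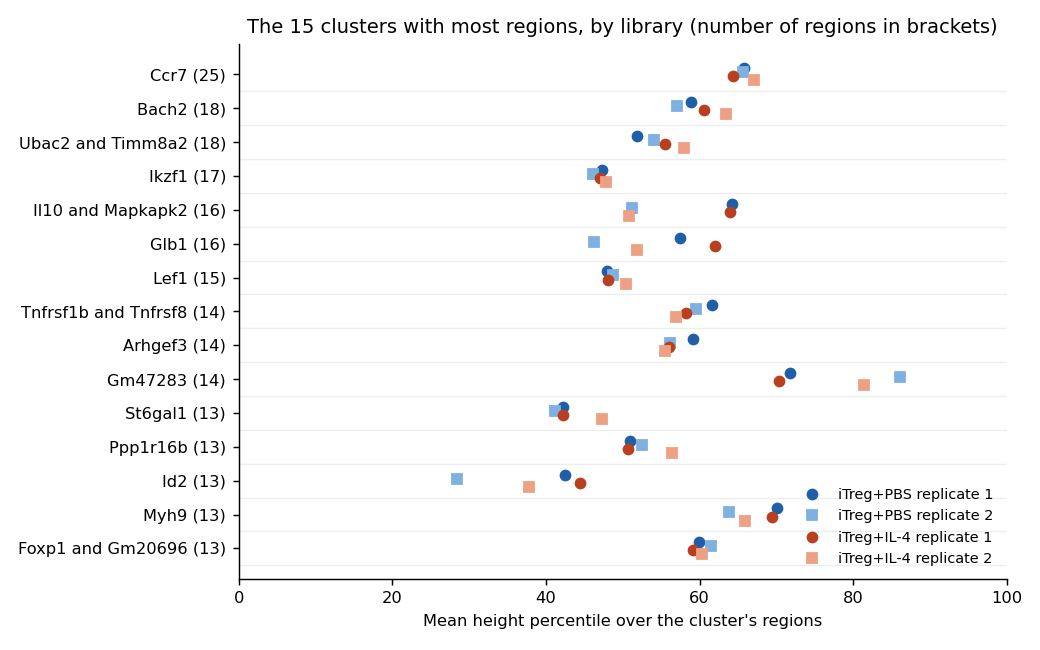
Mean height percentile over the members of each of the 15 clusters with most regions, with a point for each library. At Il10, Glb1, Id2 and Gm47283, among others, the replicates of a condition lay farther apart than the means of the conditions. Both iTreg+IL-4 libraries lay above both iTreg+PBS libraries at Bach2, at Ubac2 with Timm8a2 and at St6gal1. They lay below both at Tnfrsf1b with Tnfrsf8 and at Arhgef3.

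The densest clusters were short. At Fam169b, 9 regions lay within 22.8 kb, or 3.94 in 10 kb, and at Itpkb, whose product is a kinase of the inositol phosphate pathway downstream of the T cell receptor, 8 lay within 20.3 kb. Members at Itpkb were tall, with mean percentiles of 80.1 and 77.2 without IL-4 and 80.4 and 78.7 with it. Next came the 8 regions beside Stard7, with 3.31 in 10 kb. The clusters farthest from a protein-coding start were nearest to 3110018I06Rik (341.0 kb), Mkln1 (188.1 kb) and Spdye4c (176.1 kb), with 9, 12 and 11 regions. Their mean percentiles lay between 47.8 and 65.7 in all libraries, within the range of the clusters at genes.

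Mean percentiles lay between 40 and 70 for 115 of the 131 clusters, and 6 clusters lay below and 10 above. The lowest was a cluster of 8 regions nearest Nsg2, with 21.8 and 27.6 in iTreg+PBS and 21.3 and 31.6 in iTreg+IL-4. Apart from Itpkb, high clusters included that of 12 regions at Il2ra, the alpha chain of the IL-2 receptor and a defining surface protein of regulatory T cells, with 77.0 and 75.3 without IL-4 and 75.7 and 76.6 with it. The highest were a pair of clusters of 9 regions each on chromosome 6, nearest Ezh2 and Pdia4, with mean percentiles from 96.3 to 98.2 in the libraries.

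That pair consisted largely of copies of a shared sequence. In both clusters, 8 of 9 members shared at least 50% of their 31-base words with another member of the cluster, and the median shares were 95.7% and 85.1%. Reads that lie within a shared stretch cannot be told apart by sequence. The height of a single copy is thus uncertain, to an extent that was not measured. These clusters held 16 of the 73 members with a mean percentile of 90 or more. Without them, 1278 members in 129 clusters remained, 57 of them (4.46%) at 90 or more, and the median percentiles were 58.8, 56.5, 57.7 and 57.9. At Gm47283, 4 of 14 members had such a share. Outside these clusters, 1 member at Akap13 and 1 nearest Dhx40 had it. Copies outside a member's own cluster were not searched for.

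Genes at the clusters were long and had open promoters. The 146 linked protein-coding genes were 0.666% of all such genes, and 137 of them (93.8%) had an open promoter. Their median length was 80.2 kb, against 17.4 kb for all protein-coding genes and 23.5 kb for those with an open promoter. A long gene can overlap a cluster more easily, and what part its length had in the link was not tested.

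Transcription factors of T cells were often at clusters, namely 10 of the 30 on the list, against 0.666% of all protein-coding genes. These were Bach2, Ikzf1, Lef1, Bcl11b, Foxp1, Id2, Ets1, Prdm1, Tox and Runx3, of which Bcl11b keeps T cell identity, Ets1 acts in lymphoid cells broadly and Prdm1 encodes the effector factor Blimp-1. Mean percentiles at Ets1, with 11 regions, were 69.0 without and 70.7 with IL-4, and at Tox, with 9 regions, they were 36.2 and 38.3. Of the 28 activation-induced factors, including Fos, Batf, Irf4, Nfatc1 and Myc, none was linked to a cluster, and all 28 had an open promoter. A list of this length can hold none at the share of 0.666%, so the count is no result about these factors. At a minimum cluster size of 6, 3 of the 28 factors were linked.

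Of 24 genes of T cell receptor signalling and costimulation, 6 were at clusters. They were Ptprc with 12 regions, which encodes the phosphatase CD45, Icos with 9, a costimulatory receptor, and Cblb, Cd6, Ctla4 and Lcp2 with 8 each. Cblb and Ctla4 restrain T cell activation. The cluster at Ptprc had mean percentiles of 58.8 and 63.7 without IL-4 and 61.1 and 65.3 with it, and that at Ctla4 had 61.2 and 53.7 against 60.7 and 53.2. Both overlapped between conditions. At Cblb, with 56.5 and 53.8 without IL-4 and 58.4 and 57.6 with it, the conditions did not overlap. The difference was 2.89 points, 1.51 without iTreg+PBS replicate 2, and turned to -4.13 by the median over members.

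Cytokines and cytokine receptors had 6 of 27 genes at clusters, namely Il10, Tnfrsf1b, Il2ra, Il6ra, Ifng and Tgfbr2. The 11 regions at Il6ra, which encodes a subunit of the IL-6 receptor, had mean percentiles between 67.4 and 68.9 in every library. Of 18 genes of IL-4 and TGF-β signalling, Jak1, a kinase of cytokine receptors, had 9 regions, and Smad7, an inhibitor of TGF-β signalling, had 8. Mean percentiles at Jak1 were 52.1 and 49.7 without IL-4 and 52.3 and 56.7 with it, without overlap, and the difference was 3.66 points. It was 1.45 without iTreg+IL-4 replicate 2, 5.87 without iTreg+IL-4 replicate 1, 2.27 by −log10 q and 7.04 by the median over members. At Smad7 they were 63.6 and 66.0 against 65.0 and 66.3.

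Among 14 homing and adhesion receptors, Ccr7 and S1pr1, the receptor that lets lymphocytes leave lymph nodes, were at clusters. None of the 18 histone deacetylases and sirtuins was, nor was any of 7 B cell or 7 myeloid markers. Lists this short can hold none at the share of 0.666% of all protein-coding genes. Of 19 non-blood markers, Pecam1 was at a cluster of 8 regions, and it is also found on T cells. The lists differ in gene length, so their counts were not compared by a test.

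Genes central to the study's question about IL-4 and regulatory T cells were not at clusters. Only 0.666% of all protein-coding genes were. The rule leaves out sites near starts and sites not called in all 4 libraries, so it partly fixes this absence. Foxp3, Gata3, Stat6 and Hdac9 had an open promoter as defined above, and Il9, Il4, Il5 and Il13 did not. At Gata3, which directs helper type 2 differentiation, and at Il4 the largest stitched unit had 2 regions, and at Hdac9, which encodes a histone deacetylase, it had 1. For Foxp3, the master factor of regulatory T cells, the nearest unit was a single region 5.54 kb away. For Il9 it was a unit of 3 regions at 1.80 kb, and Il5, Il13 and Stat6 were each nearest to a single region.

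Whether IL-4 changed the members' heights was tested with limma on quantile-normalised log2 height over all 47767 regions. No region passed an adjusted p of 0.05 in either direction, which gives a background of 0% and no called member. At an unadjusted p under 0.05, 31 members (2.39%) were higher with IL-4 and 9 (0.694%) were lower, against 2.12% and 0.955% of all regions. The median log2 change was 0.026 over members and -0.006 over all regions. With 2 libraries in each group, a p that misses the threshold does not show that heights were alike.

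As a single value per library, the median percentile of members was 57.9 ± 1.9 (SD, n = 2) in iTreg+PBS and 58.1 ± 0.13 (SD, n = 2) in iTreg+IL-4. The difference of 0.25 points was smaller than the spread of the iTreg+PBS libraries, and an exact two-sided permutation test over libraries gave p = 1, where the smallest p possible was 0.33. The difference was 3.56 points with percentiles among all peaks, and it turned to -0.596 by −log10 q, to -0.586 at a minimum cluster size of 10 and to -1.10 without iTreg+PBS replicate 2.

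Counted by non-overlap, 206 members (15.9%) had both iTreg+IL-4 percentiles above both iTreg+PBS percentiles, near the 13.7% of all regions. The opposite held for 128 members (9.88%), against 12.0% of all. Taking the mean over each cluster, 20 clusters (15.3%) were higher with IL-4 in both libraries and 12 (9.16%) were lower, close to the 15.8% and 11.8% of all 5404 stitched units of 2 or more regions. With percentiles taken among all peaks of a library, 19 clusters (14.5%) were higher and 0 lower, against 19.5% and 1.83% of the units, so none of the lower clusters named below stood apart on that scale. The difference between conditions was under 3 points in 101 of the 131 clusters.

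Among clusters without overlap, the one with the largest difference of means lay on chr13:52792906-52829596, with 8 intergenic regions 5.52 kb from Auh, which encodes a mitochondrial enzyme of leucine breakdown. Mean percentiles were 56.2 and 40.8 in iTreg+PBS replicates 1 and 2 and 70.01 and 59.0 in iTreg+IL-4 replicates 1 and 2. Both libraries with IL-4 were higher than both without, by 16.0 points in the means of 48.5 ± 10.9 and 64.5 ± 7.79 (SD, n = 2). The difference was 8.29 points without iTreg+PBS replicate 2, 10.5 without iTreg+IL-4 replicate 1 and 23.7 without iTreg+PBS replicate 1. Of its members, 7 of 8 had a higher mean with IL-4, against 55.7% of all members and 48.8% of all regions, in a cluster picked for its difference. The second element from the start had percentiles of 44.0, 26.9, 65.1 and 50.8 in that order, and the fourth had 33.3, 30.9, 61.6 and 47.3. The element at the far end differed little, with 79.8, 73.3, 79.0 and 72.5.

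A limma fit on the mean normalised log2 height of each stitched unit, added after the members' values were known, gave a log2 difference of 0.66 (SE 0.29) for the cluster near Auh. Its unadjusted p was 0.057 and its adjusted p over 5404 units was 1.00, and a block for replicate number gave an adjusted p of 0.083. None of the 5404 units passed the adjusted threshold (0%), and none of the 131 clusters had an unadjusted p under 0.05, against 2.59% of all units. Without iTreg+PBS replicate 1, 11 units passed as higher and 9 as lower, and without iTreg+PBS replicate 2, 2 passed as higher. None of them was a cluster, and in these fits the lone iTreg+PBS library is assumed to vary like the iTreg+IL-4 libraries.

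The other clusters with separated conditions differed by much less. With IL-4, the cluster at Gm20388 and Ankrd11 was higher by 5.27 points, that nearest Arl14 by 5.03, that nearest Ugcg by 4.51 and that at Elf1, which encodes an ETS factor, by 4.12. At Gm20388 and Ankrd11 the mean percentiles were 49.7 and 50.1 without IL-4 and 53.2 and 57.1 with it. By the median over members in place of the mean, the difference there was 1.31 points and near Ugcg 1.92. Without iTreg+IL-4 replicate 2 the difference at Gm20388 and Ankrd11 was 3.32 points, and without iTreg+PBS replicate 1 that at Elf1 was 2.36.

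In the other direction, the 11 intronic regions at Spred2, an inhibitor of MAP kinase signalling, had mean percentiles of 57.5 and 52.4 in iTreg+PBS and 51.4 and 45.2 in iTreg+IL-4. The difference was -6.67 points, the lowest of the 131 clusters, and 4 of the 11 members lay lower in both libraries with IL-4, as did 9.88% of all members and 12.0% of all regions. The cluster was picked for this difference, which was -3.59 without iTreg+IL-4 replicate 2, -4.12 without iTreg+PBS replicate 1 and -9.75 without iTreg+IL-4 replicate 1. The cluster beside S1pr1 was lower by a difference of -3.49 points, that nearest Rpl11 by -3.43, that nearest Cmah by -3.42 and that at Tnfrsf1b and Tnfrsf8 by -2.97. At S1pr1 the mean percentiles were 56.8 and 57.3 without IL-4 and 52.2 and 55.0 with it. Without iTreg+IL-4 replicate 1 the differences were -2.08 points at S1pr1, -2.19 at Rpl11 and -1.01 at Cmah, and without iTreg+PBS replicate 1 that at Tnfrsf1b and Tnfrsf8 was -1.89. By the median over members, they were -1.97 at Rpl11, -5.75 at Cmah and -6.40 at Tnfrsf1b and Tnfrsf8. The limma fit on stitched units gave adjusted p-values of 1.00 for all of these clusters.

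**Figure D4:**
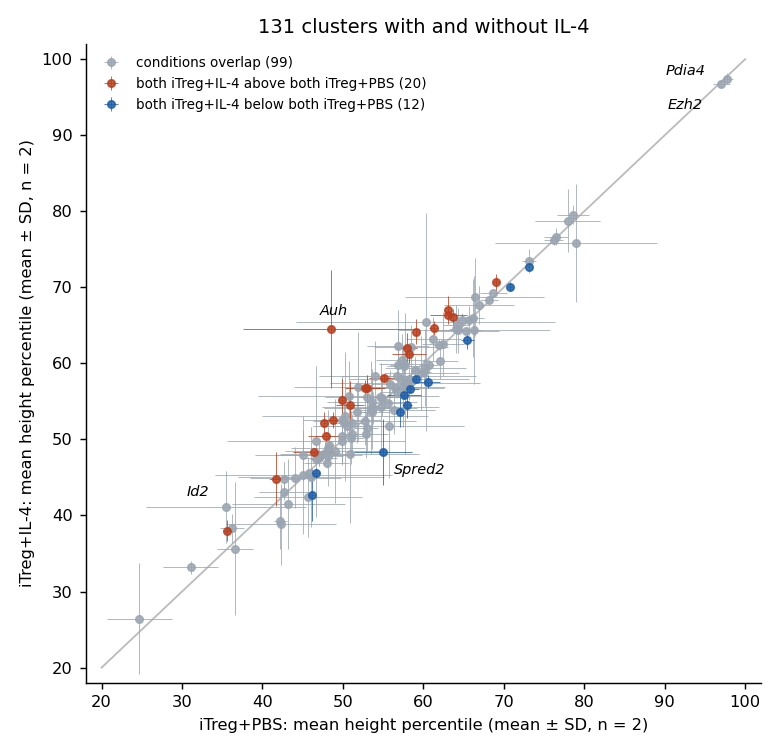
Mean height percentile of each of the 131 clusters with IL-4 against that without (points, mean of 2 libraries; lines, SD). Clusters followed the line of equal values, 20 lay above it and 12 below it without overlap between conditions, and the cluster near Auh lay farthest from it at 48.5 and 64.5.

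The spans also held regions that were no members. Of 1833 regions in them, 1381 were called in all 4 libraries, which the rule largely fixed, and 85 of these lay near start sites. The other 452 had been called by some libraries only, 164 of them (36.3%) by a single library. In the genome, single-library regions were 44.1% of those not called everywhere and 21.6% of all merged regions. Regions found with IL-4 in both replicates but in no iTreg+PBS library numbered 25, in 21 clusters, which was 5.53% of the 452 regions in spans that were not called everywhere and near the 5.31% in the genome. The reverse pattern was found for 6 regions in 6 clusters, or 1.33% against 1.43%.

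Of the 25, 4 lay in the span at Ikzf1, which held 32 regions of any kind, and 2 lay at Ankrd44. Single regions lay in the spans named for Arhgap25, Cetn4, Clec16a, Extl3, Ankrd11, Hivep2, Lonp2, Mbd2, Spred2, Spsb1, St6gal1 and Vdac1. Single regions also lay at Ccr7, Bcl11b, Ctla4, Ets1, Lef1, Runx3 and Jak1. That at Ets1 (chr9:32745936-32746129) had heights of 152 and 98 with IL-4, and that at Ccr7 (chr11:99145803-99146273) had 121 and 83. Of the 6 called only without IL-4, 1 lay at Ikzf1 and 1 at Tnfrsf1b and Tnfrsf8. The others lay singly in the spans named for Cetn4, Dnajb12, Myh9 and Nsg2. When all lists were held to the same number of peaks, 13 regions were called only with IL-4 and 14 only without. These were 3.39% and 3.66% of the regions in spans not called everywhere, against 4.69% and 2.52% in the genome.

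The base composition of members was near that of other distal regions. The median GC content of the central 300 bases was 48.3% in members, 48.0% in other constitutive distal regions and 59.7% near start sites. Motifs were searched on both strands, and a window could match several. ETS (CAGGAAG) was held by 20.4% of members and 20.1% of the others, and RUNX (TGTGGTT) by 14.6% and 14.3%. Without the clusters of repeated sequence the members' RUNX share was 13.7%, so the order of these shares turned. Both factor families act in lymphoid development. For comparison, 17.96% and 11.3% of all windows on regions called in every library held them.

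AP-1 (TGANTCA), the site of Fos, Jun and Batf dimers, was in 21.6% of member windows (95% Wilson interval 19.4 to 23.9%, counting error only). Of the other distal windows 18.8% (18.3 to 19.3%) held it, of windows near start sites 8.28%, and of all windows 14.4%. A motif like that of STAT6, the factor activated by IL-4, was searched as TTC and GAA with 4 bases between them. It was in 10.96% of members (9.37 to 12.8%), 8.91% of the other distal windows (8.57 to 9.26%) and 7.70% of all. With 3 bases between them, as in TTCNNNGAA, the shares were 14.3%, 14.2% and 11.8%. In windows of 200 bases the intervals of members and other distal regions overlapped, at 13.9 to 17.8% and 13.6 to 14.5% for AP-1 and at 6.24 to 9.13% and 5.88 to 6.46% for the STAT6-type motif. Neighbouring members are not independent of each other, and no test was made.

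The motif of the GATA family, searched as AGATAA, was in 12.1% of members, 13.5% of the others and 10.6% of all windows. For NFAT (TGGAAAA) the shares were 8.49%, 7.43% and 6.15%. TCF/LEF (CTTTGAA) was in 9.26%, 8.52% and 6.83%, and for NF-kB (GGGNNTTTC) these were 7.02%, 6.30% and 5.76%. The E-box CAGGTG was in 22.1% and 22.9%, against 22.5% of all. The insulator factor's motif CTCF (AGGGGGCGC) was in 12 members (0.926%) and 1.26% of the others, and SP/KLF (CCCGCCC) in 4.86% and 5.52%, while 31.4% of windows near start sites held the latter. Of all windows 1.63% and 16.4% held these motifs. Repeat-masked bases made up over 50% of the window in 5.94% of members and 11.4% of the other distal regions.

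**Figure D5:**
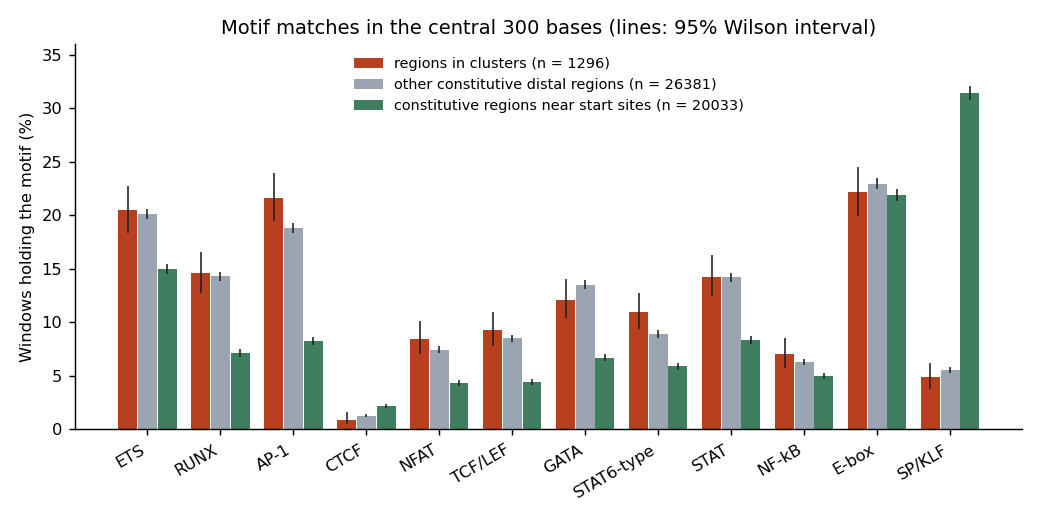
Share of central 300-base windows holding each of 12 motifs in regions of clusters, other constitutive distal regions and constitutive regions near start sites, with 95% Wilson intervals. For AP-1 and the STAT6-type motif the interval of the cluster regions lay above that of the other distal regions in these windows but not in windows of 200 bases, and SP/KLF was high near start sites.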

How the data were processed

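ATAC-seq of 2 iTreg+PBS and 2 iTreg+IL-4 libraries was used as 4 deposited peak lists. The authors aligned reads to mm10 with Bowtie2 2.2.5 and called peaks per library with MACS2 2.1.2, and the submitters' processing notes also name bedtools 2.16.2. Each deposited list gives a peak's position, its −log10 q-value and its pileup height, a signal that the authors did not scale between libraries. Reads per library are not given in the sources used here.

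Peaks were merged if they shared at least 1 base. Starts were those of GENCODE vM21 transcripts. Heights were ranked within libraries and, for limma 3.58.1 (R 4.3.3), log2 heights were quantile normalised over the 47767 regions called in all 4 libraries, with Benjamini-Hochberg adjustment at 0.05. Other steps used Python 3.11.15, pandas 2.3.3, scipy 1.17.1 and pysam 0.24.0. The stitching and the limma fit were tested on simulated data. P-values measure the spread between 2 pooled samples per condition. Deviations of same-numbered libraries from their condition's mean correlated with r = 0.556 across regions and 0.695 across members. However, 2 numbers cannot establish a pairing, so the fit had no block.

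The members, gene lists and motifs were chosen with earlier results of these data known. Clusters named were the 15 with most members, the 3 densest, the 3 farthest from a protein-coding start, the 5 with the largest difference in each direction among those without overlap, and up to 4 per gene list. Others were named after their values were seen. Alternatives changed the overlap, peak threshold, start distance, gap, cluster size, height measure, window, block and libraries. The values of some listed genes are not reported here.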

Additional observations from a re-analysis of the deposited data

How the results depend on the processing

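The number of clusters depended on most steps of the rule. Lists of the same number of peaks gave 932 members in 97 clusters. Against 1296 in 131, the upper 50% of each list gave 86 in 9, peaks covering at least 50% of the merged region gave 482 in 50, a gap of 5 kb gave 34 in 4 and of 25 kb gave 5141 in 442. A start distance of 1 kb gave 2094 in 205, of 5 kb gave 707 in 74, and starts of protein-coding transcripts only gave 2279 in 220. A minimum size of 6 gave 2586 in 336 and of 10 gave 650 in 54. Leaving out a library gave 1350 to 2286 members in 136 to 219 clusters, the highest without iTreg+PBS replicate 2.

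No member passed the adjusted threshold of limma in any setting, the replicate block included, and no cluster in the fit on stitched units. At an unadjusted limma p under 0.05, the block gave 87 members higher and 40 lower, against 31 and 9 without it. Of all 47767 regions, 2589 were higher and 1975 lower with the block, against 1015 and 456 without it. The median percentile difference of 0.25 points became 3.56 with percentiles among all peaks of the library, -0.596 by −log10 q, -0.586 at a minimum size of 10, and -1.10 to 1.60 when a library was left out, the lowest without iTreg+PBS replicate 2. With those percentiles, 19 clusters were higher and 0 lower with IL-4. In alternatives chosen after seeing the data, the median over members in place of the mean turned the difference to 2.33 points at Arhgef3, -5.55 at St6gal1, 1.79 at Fam169b and -4.13 at Cblb. With the replicate number as a block, 53 clusters (40.5%) were higher within both numbers and 32 (24.4%) lower, against 32.4% and 27.9% of stitched units.

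Regions called only with IL-4 numbered 13 and only without 14 at equal list lengths, and 3 only without in the upper 50% of each list. Leaving out a library gave 33 to 124 and 14 to 67, the highest without iTreg+PBS replicate 1 and replicate 2 respectively.

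At a minimum size of 6, clusters were linked to 3 activation-induced factors, 10 genes of T cell receptor signalling, 4 of IL-4 and TGF-β signalling, 1 histone deacetylase or sirtuin, 1 myeloid marker and 343 protein-coding genes. At 10 these were 1 gene of receptor signalling, 0 of IL-4 and TGF-β signalling, 1 homing receptor, 0 non-blood markers, 0 housekeeping genes and 60 protein-coding genes. With overlapping genes only, 1 homing receptor was linked. In whole merged regions, members exceeded other distal regions by 3.07 points for ETS, 5.55 for AP-1 and 2.47 for the E-box, and in windows of 200 bases by 1.69 points for AP-1. The cause of these moves was not tested. Requiring 50% of the shorter interval changes nothing by construction, since each peak lies whole in its merged region.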
